A study of Mus musculus with 9 samples.

Results

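The T cell receptor gene segments are the variable (V), joining (J) and constant (C) pieces of the alpha, beta, gamma and delta receptor loci. They were taken as every row of the count table whose symbol begins with Tr, one of the letters a, b, d or g, and then v, j or c. The rule found 216 of 34092 gene rows: 105 Trav, 59 Traj, 1 Trac, 23 Trbv, 14 Trbj, 2 Trbc, 5 Trdv, 2 Trdj, 1 Trgv and 4 Trgj. The samples were regulatory T cells, sorted from mice and studied at rest, from a wild-type group (WT, genotype Foxp3gfp) and a group named CNS2KO (genotype Foxp3deltaCNS2-gfp). Both groups carry a gfp allele of Foxp3, the gene for the transcription factor that marks these cells, and the second lacks CNS2, a conserved noncoding element within Foxp3. Strain, age, sex and the number of animals behind a sample are not given in the sources used here, so the spread that a p-value is set against is that of the deposited samples and may be partly technical. The labels list 6 WT and 3 CNS2KO samples. The number 407 belongs to a sample of each genotype, so both columns that carry it were left out, and 5 WT and 2 CNS2KO libraries were compared.

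An alpha and beta chain pair forms the antigen receptor of most T cells. Each developing cell joins 1 V segment to 1 J segment, with a D segment between them in the beta and delta loci, and the messenger RNA is then spliced to a constant region. A sorted population holds many clones with different joins, so its V and J reads report how often each segment is used, whereas the constant region is shared by all clones. Gamma delta T cells, a separate lineage, use the other pair of loci. Regulatory T cells carry alpha beta receptors and are known for a broad repertoire that reacts in part to self antigens.

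Each library held 16557424 to 21836578 reads on genes, and the receptor rows took 0.347 to 0.475% of them. Levels below are CPM, read counts scaled to a common number of reads on genes, with library sizes adjusted by the TMM method; 1 read stood for 0.0472 to 0.0607 CPM, and 3 reads, the limit that a count of 0 allows, for 0.142 to 0.182 CPM. The libraries differed in how many genes had any read, from 14639 in CNS2KO 399 to 19206 in CNS2KO 408, with the WT libraries between 14810 and 18255. The regulatory T cell markers (Foxp3, Il2ra, Ikzf2, Ctla4, Nrp1 and Tnfrsf18) summed to 4344 to 5066 CPM in WT and 4429 to 4958 CPM in CNS2KO. Summed levels of the other marker lists in WT and CNS2KO were 26.4 to 45.6 and 22.7 to 28.1 CPM for CD8 T cells, 11.4 to 24.3 and 20.2 to 31.5 CPM for NK cells, 6.31 to 27.6 and 30.6 to 151 CPM for erythroid cells, and 62.4 to 84.9 and 78.7 to 89.8 CPM for myeloid cells. The B cell list (Cd79a, Cd79b, Ms4a1 and Ighm) summed to 1051 to 1348 and 973 to 1145 CPM, nearly all of it in the immunoglobulin constant gene Ighm, with Cd79a at 2.16 to 14.4 CPM over the 7 libraries. The naive T cell list, which regulatory T cells share, summed to 4172 to 4694 and 4394 to 4641 CPM. The highest erythroid sum, 151 CPM, was in CNS2KO 399. Single genes made up most of 3 other sums. Over the 7 libraries, Prf1 stood at 11.4 to 25.2 CPM in the NK list, with Gzma at 0 to 6.28 CPM, Klrb1c at 0 to 1.09 CPM and Ncr1 at 0 reads. Cd8b1 stood at 20.8 to 39.3 CPM in the CD8 list, and Cst3 at 45.9 to 71.1 CPM in the myeloid list. The part of these cell types in the segment levels was not tested.

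Constant regions gave the highest CPM of all segments. In such bulk RNA, fewer cells that use a segment and less of its RNA per cell cannot be told apart. Trac, the only alpha constant gene, stood at 557, 707, 627, 623 and 835 CPM in WT 398, 402, 405, 1032 and 1037 and at 620 and 580 CPM in CNS2KO 399 and 408. Both CNS2KO values lay inside the WT range, and the highest library was WT 1037. The log2 fold change of CNS2KO over WT was -0.16 (SE 0.17, adjusted p = 0.9999, edgeR quasi-likelihood test).

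The beta locus has a pair of constant genes, each behind its own cluster of J segments. Trbc2 stood at 704, 1015, 748, 795 and 1051 CPM in the WT libraries, in the same order, and at 985 and 765 CPM in CNS2KO. Trbc1 stood at 395, 678, 552, 459 and 726 CPM in WT and at 764 and 531 CPM in CNS2KO. Of the CNS2KO values only the 764 CPM of Trbc1 in CNS2KO 399 lay outside the WT range, and the log2 fold changes were 0.02 (SE 0.19) for Trbc2 and 0.21 (SE 0.24) for Trbc1, both with an adjusted p of 0.9999. Both signs turned when CNS2KO 399 was left out (-0.17 and -0.08).

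Per kilobase of annotated transcript, Trbc2 (1252 CPM per kb, mean of 7 libraries) was above Trbc1 (796) and Trac (695) in each of the 7 libraries. Trbc1 and Trac did not keep 1 order: Trbc1 was the lower in WT 398 (536 against 596 CPM per kb) and in WT 1032 (623 against 667). Trbc2 took 64.1, 59.9, 57.6, 63.4 and 59.2% of the reads on both beta constant genes in WT, and 56.3 and 59.0% in CNS2KO. Exact Clopper-Pearson 95% intervals were narrow, such as 63.4 to 64.7% in WT 398 and 55.8 to 56.8% in CNS2KO 399, and cover counting error only. The WT mean was 60.8% ± 2.79 (SD, n = 5) and the CNS2KO mean 57.7% ± 1.91 (SD, n = 2); CNS2KO 399 lay below all WT libraries and CNS2KO 408 among them.

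How well reads can tell the beta constant genes apart depends on their sequence, shown here because their share rests on it. The coding parts are 518 bases each and differ at 23 positions (95.6% identity); 1 of these is in the first 375 bases, the first exon, and 22 are in the last 143. Of all stretches of 50 bases in either coding sequence, 39.7% occur in no other annotated transcript. The stretch from coding base 376 to 518 in GENCODE M21 (build GRCm38) reads as follows, with the differing bases in capitals.
Trbc1: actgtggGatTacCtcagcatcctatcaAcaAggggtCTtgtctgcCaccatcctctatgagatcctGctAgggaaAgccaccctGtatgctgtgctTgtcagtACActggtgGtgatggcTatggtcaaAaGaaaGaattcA
Trbc2: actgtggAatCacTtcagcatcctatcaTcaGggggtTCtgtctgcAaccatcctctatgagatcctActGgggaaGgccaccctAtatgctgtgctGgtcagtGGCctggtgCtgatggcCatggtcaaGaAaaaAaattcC
How the authors' counting treated reads that match both genes is not given in the sources used here, so the split between them is uncertain where it rests on the first exon.

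Summed over each class, the beta segments took more reads than the alpha segments. All 39 beta rows summed to 3052 ± 523 CPM in the 5 WT libraries and 3239 ± 519 CPM in the 2 CNS2KO libraries (mean ± SD), and all 165 alpha rows to 1059 ± 165 and 944 ± 72.5 CPM. For V segments, whose annotated lengths are alike in the 2 loci (median 370 bases for Trbv and 378 for Trav), the Trbv sum was 3.95 to 5.65 times the Trav sum over the 7 libraries. Divided by the mean row length, the mean sums were 3560 CPM per kb for Trbv and 734 for Trav. The 2 classes are not alike in sequence: 36 of 105 Trav rows have no 50-base coding stretch of their own, against 0 of 23 Trbv rows. Reads that match several rows may not be counted, and their part in the ratio of Trbv to Trav was not tested. The Trbj sum was 2.45 to 3.78 times the Traj sum, and the constant genes Trbc1 and Trbc2 together were 1.97 to 2.82 times Trac. The CNS2KO values of the V ratio were 5.30 and 5.65 and the WT values 4.22, 4.99, 5.46, 4.87 and 3.95, so the groups overlapped. Within each locus the V sum followed the constant genes: Trbv over Trbc lay between 0.815 and 1.07, and Trav over Trac between 0.405 and 0.465.

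**Figure D1:**
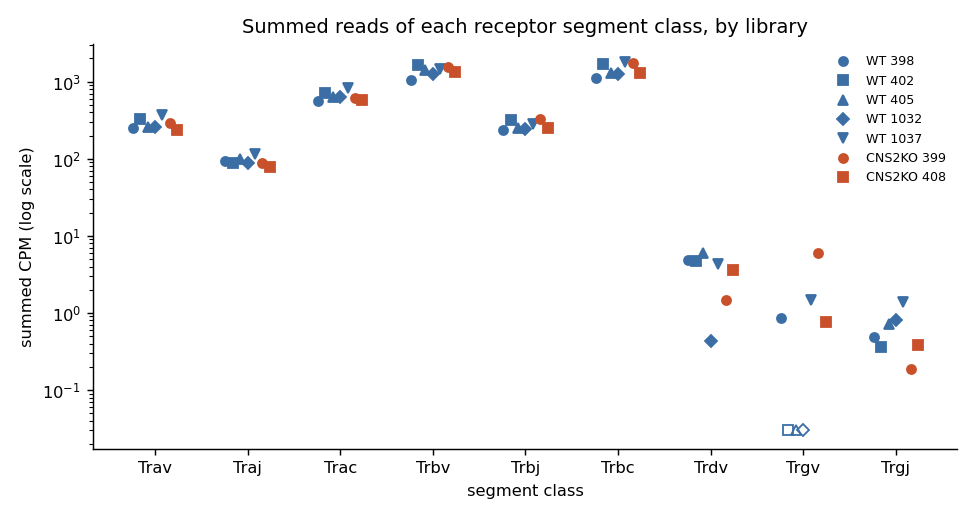
Summed CPM (log scale) of each segment class in the 5 WT (blue) and 2 CNS2KO (orange) libraries; each point is 1 library, and open points are 0. Alpha and beta classes stand between 77.4 and 1777 CPM in every library, while the gamma and delta classes are at or below 6.003 CPM and vary most.

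Among beta V segments, Trbv3 and Trbv13-2 were used most. Trbv3 took 11.3, 10.8, 10.7, 12.5 and 10.7% of Trbv reads in WT and 11.5 and 11.6% in CNS2KO. Trbv13-2 took 10.5, 11.3, 10.4, 10.1 and 10.6% in WT and 11.7 and 9.04% in CNS2KO. Their order was not stable: Trbv13-2 was the higher in WT 402 and CNS2KO 399, and per kilobase of annotated transcript it stood above Trbv3 (429 against 341 CPM per kb).

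By mean CPM over the 7 libraries Trbv19, Trbv5 and Trbv15 came next, at 115 ± 20.1, 112 ± 13.0 and 92.1 ± 22.1 CPM in WT (SD, n = 5) and 117 ± 12.0, 121 ± 15.2 and 96.0 ± 20.2 CPM in CNS2KO (SD, n = 2). Trbv19 and Trbv5 differed by less than the SD between libraries, and Trbv15 was below both in each of the 7 libraries. Trbv15 and the next segment, Trbv13-3, were not separable (93.2 and 93.1 CPM), and per kilobase Trbv13-3 was the higher (274 against 252 CPM per kb). The first 5 segments took 43.3 to 47.3% of Trbv reads in a library, and the Trbv13 family, with 3 rows, 20.7 to 24.3%. At the low end, Trbv21 had 50 reads in WT 1032, 20 in CNS2KO 408 and at most 2 in each other library, and Trbv10 had 4 reads, all in WT 398.

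The 3′ ends of the most used beta V segments are shown because this end is joined to D and J and begins the hypervariable CDR3 loop. The capitals mark the codon of the conserved cysteine before it, and the bases come from GENCODE M21, build GRCm38.
Trbv3: gtgtacttcTGTgccagcagcttagccaca
Trbv13-2: catcagtgtacttcTGTgccagcggtgatg
Trbv19: tggccgtttttctcTGTgccagcagtatag
Trbv5: agctgtctattttTGTgccagcagccaaga
The rows of the beta V segments were largely separable: 18 of 23 consist wholly of 50-base stretches found in no other gene. The exceptions of any size were Trbv4 and Trbv5, which share 84.1 and 84.6% of their stretches with the annotated transcript 5830405F06Rik, so their levels are uncertain.

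**Figure D2:**
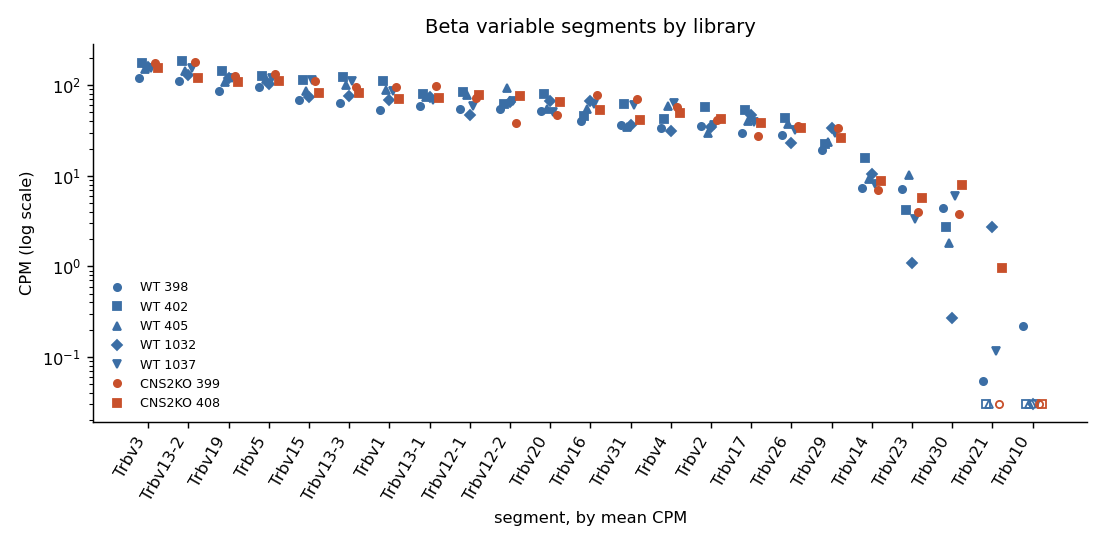
CPM (log scale) of the 23 Trbv rows in each library, ordered by mean CPM; blue points are WT, orange CNS2KO, and open points are 0. The first 18 segments stand above the last 5 in all 7 libraries, with Trbv3 at 119 to 176 CPM, while Trbv21 ranges from 0 to 2.70 CPM.

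The beta V segments with the largest coefficient of variation over WT libraries, among those with a mean of at least 10 CPM, were Trbv4, Trbv31 and Trbv2 (32.0, 30.3 and 26.8%). Trbv4 stood at 33.4, 42.7, 58.8, 31.3 and 63.8 CPM in WT and 56.9 and 49.9 CPM in CNS2KO. Trbv31, the segment that lies downstream of the constant genes and rearranges by inversion, stood at 36.2, 61.8, 34.4, 36.5 and 60.1 CPM in WT and 70.4 and 41.3 CPM in CNS2KO. Its highest library was CNS2KO 399, and the other CNS2KO library was inside the WT range. Trbv2 was highest in WT 402 (56.8 CPM) and between 29.96 and 42.9 CPM elsewhere.

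Joining segments of the second beta cluster supplied most Trbj reads. The Trbj2 cluster took 69.0, 68.4, 70.6, 71.0 and 73.9% of them in WT and 75.9 and 68.6% in CNS2KO, so 1 CNS2KO library was above the WT range and 1 inside it. In every library this share was above the share of Trbc2 among the beta constant genes. CNS2KO 399 had the highest Trbj2 share and the lowest Trbc2 share (56.3%), so the 2 measures did not move together. The part of read assignment in this was not tested. Trbj2-7 was first in every library, with 19.8 to 24.1% of Trbj reads and 58.0 ± 10.3 CPM in WT (SD, n = 5) against 62.7 ± 19.02 CPM in CNS2KO (SD, n = 2). Over its 47 bases this came to 1263 CPM per kb, the highest of the Trbj rows on that scale. Reads can reach beyond so short a row, so the scale does not compare J rows with the longer V and C rows.

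Trbj2-1, Trbj2-3 and Trbj2-4 stood at 35.4 ± 6.13, 30.7 ± 6.61 and 24.6 ± 6.72 CPM in WT (SD, n = 5) and at 34.6 ± 5.96, 33.4 ± 7.58 and 26.2 ± 1.66 CPM in CNS2KO (SD, n = 2). Trbj2-5 stood at 26.9, 26.7, 21.8, 24.1 and 26.3 CPM in WT and at 45.7 and 23.4 CPM in CNS2KO. The 45.7 CPM of CNS2KO 399 was the only value of Trbj2-5 apart from the rest, and the log2 fold change of 0.46 (SE 0.28, adjusted p = 0.9999, edgeR) became -0.10 without that library. Trbj2-2 showed the same library as its highest (24.04 CPM, against 11.9 to 18.4 CPM in WT and 14.7 CPM in CNS2KO 408).

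A joining segment encodes the J motif of the receptor chain, Phe or Trp, Gly, any residue, Gly, which closes the CDR3 loop. Sequences are shown for the segments that stand highest and for those without the motif; the capitals mark its codons, found by searching the coding strand of each segment, in any frame, in GENCODE M21 (build GRCm38).
Trbj2-7: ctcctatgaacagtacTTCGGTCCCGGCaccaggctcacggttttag
Trbj2-1: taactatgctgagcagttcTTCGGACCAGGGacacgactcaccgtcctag
Trbj2-3: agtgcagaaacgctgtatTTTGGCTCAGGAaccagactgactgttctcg
Trbj2-5: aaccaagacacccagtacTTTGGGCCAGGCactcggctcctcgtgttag
Trbj1-6: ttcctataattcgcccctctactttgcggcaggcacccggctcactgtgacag
Trbj1-7: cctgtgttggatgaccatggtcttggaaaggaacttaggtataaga
Trbj2-6: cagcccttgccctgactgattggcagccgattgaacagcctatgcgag
The motif was present in 11 of 14 Trbj rows, whose median level was 21.9 CPM. Of the 3 without it, Trbj1-7 and Trbj2-6 had at most 3 reads in any library, and Trbj1-6 stood at 6.40 CPM (mean of 7 libraries). Among Traj rows 44 of 59 (74.6%) held the motif, and 2 of these, Traj46 and Traj54, had 0 reads in all 7 libraries, against 10 of the 15 without it. The highest level without the motif was 1.10 CPM, in Traj44. The annotation calls 9 of the Traj rows pseudogenes, and 8 of those had 0 reads.

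Use of alpha J segments was spread over many rows with few reads each, 1470 to 1992 Traj reads per library. The highest were Traj31, Traj23, Traj26, Traj15 and Traj17, which together took 24.6 to 37.3% of Traj reads. Traj31 stood at 7.19, 6.31, 10.3, 7.17 and 7.42 CPM in WT and at 6.05 and 3.35 CPM in CNS2KO, both below every WT library. Its log2 fold change was -0.71 (SE 0.49, adjusted p = 0.9999, edgeR). An exact two-sided permutation over the 21 assignments of libraries gave p = 0.048, the lowest it can reach, with no adjustment for the number of segments. The Traj rows together were also lower in both CNS2KO libraries (87.4 and 77.4 CPM) than in every WT library (88.1 to 116 CPM). As a share of Traj reads, Traj31 did not have both CNS2KO libraries below every WT library. Traj26 varied most of the 5: it stood at 3.54, 11.7, 4.27, 0.485 and 4.67 CPM in WT, and its CNS2KO values of 6.24 and 3.78 CPM lay between.
Traj31: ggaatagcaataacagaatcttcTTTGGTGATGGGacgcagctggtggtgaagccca
Traj23: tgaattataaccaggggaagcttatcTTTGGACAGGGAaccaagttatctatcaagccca
These are the most used alpha J segments, with the motif codons in capitals as above. Traj23 stood at 5.99, 3.82, 6.51, 5.61 and 9.12 CPM in WT and 3.87 and 6.31 CPM in CNS2KO, inside the WT range.

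The alpha V locus is known for a duplicated stretch whose copies carry d and n in their symbols. Of 105 Trav rows, 20 had 0 reads in all 7 libraries: 17 of the 26 n rows, 1 of the 34 d rows and 2 of the 45 rows with neither letter. Of these 20 rows, 17 hold no 50-base coding stretch of their own, and 16 match 1 other gene at every stretch. For 15 of the 16, that other gene is a Trav row with reads, at 0.320 to 8.97 CPM (median 2.02 CPM, mean of 7 libraries). In all, 36 of 105 Trav rows have no stretch of their own, against 0 of 23 Trbv rows. Of these 36 Trav rows, 19 had reads, at up to 10.6 CPM (mean of 7 libraries). Reads whose alignment was not unique have a summary row apart from the gene rows. How many reads of such Trav rows it took is not given, and the part of shared sequence in the rows at 0 was not tested.

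The Trav12 rows numbered 2 show such a set, by their last 90 coding bases in GENCODE M21 (build GRCm38), with the bases that are not the same in all copies in capitals.
Trav12-2: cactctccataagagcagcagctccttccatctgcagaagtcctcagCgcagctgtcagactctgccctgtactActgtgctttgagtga
Trav12d-2: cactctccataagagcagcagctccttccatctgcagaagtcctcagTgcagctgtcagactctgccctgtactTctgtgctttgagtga
Trav12n-2: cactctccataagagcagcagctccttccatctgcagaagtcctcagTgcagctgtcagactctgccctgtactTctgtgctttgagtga
Trav12d-2 and Trav12n-2 are identical over all 341 coding bases; Trav12d-2 stood at 4.08 CPM (mean of 7 libraries) and Trav12n-2 had 0 reads. Trav12-2, which differs from both, stood at 11.1, 13.0, 7.22, 8.63 and 14.0 CPM in WT and 14.9 and 7.94 CPM in CNS2KO. A count of 0 in a row with an identical copy is therefore no measure of that segment's use.

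**Figure D3:**
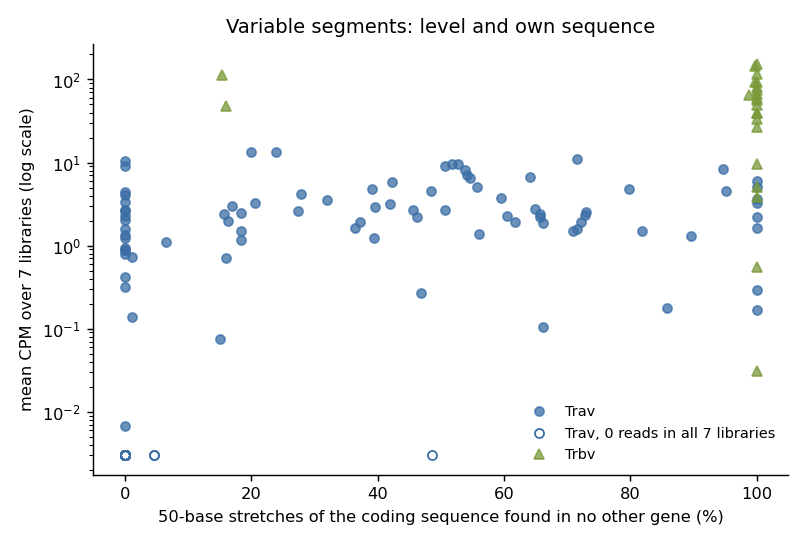
Mean CPM over 7 libraries (log scale) of each Trav row (circles) and Trbv row (triangles) against the percent of its 50-base coding stretches found in no other annotated gene; open circles are Trav rows with 0 reads. Of the 20 open circles, 17 lie at 0% and none lies at or above 50%; the 38 Trav rows at or above 50% all have reads.

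The most used alpha V rows were Trav7-4 and Trav7d-4. Trav7-4 stood at 13.4, 12.1, 7.17, 17.2 and 19.2 CPM in WT and at 15.1 and 10.2 CPM in CNS2KO. Trav7d-4, which differs from it at 2 of 341 coding bases, stood at 11.1, 23.4, 15.5, 10.9 and 12.3 CPM in WT and at 11.9 and 8.41 CPM in CNS2KO. They were not high in the same libraries: Trav7d-4 was highest in WT 402, where Trav7-4 was at 12.1 CPM.

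Trav14d-1 and Trav14-2 were next to Trav12-2 in level. Trav14d-1, all of whose 50-base stretches are also in Trav14n-1, stood at 7.52, 16.99, 7.43, 6.04 and 15.4 CPM in WT and 13.7 and 6.93 CPM in CNS2KO. Trav14-2 stood at 8.01, 8.13, 9.36, 9.28 and 15.0 CPM in WT and 8.88 and 8.75 CPM in CNS2KO, so WT 1037 alone was high. Trav7-4, Trav7d-4, Trav12-2, Trav14d-1 and Trav14-2, the 5 rows of highest mean CPM, together took 18.0 to 22.5% of Trav reads in a library.

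Rows were also summed into families by the number in their symbol. Such sums do not depend on which row of a family a read was given to, but reads left uncounted are still missing from them. Trav14 (9 rows) took 12.5 to 18.0% of Trav reads in WT and 22.0 and 20.1% in CNS2KO, Trav7 took 11.6 to 16.0% and 11.5 and 12.4%, and Trav12 took 11.4 to 15.5% and 12.0 and 11.5%. Of 21 Trav families with reads, Trav14 had both CNS2KO libraries above the WT range, and Trav8 and Trav2 had both below it. These 3 are 14.3% of the families by share of reads, beside 6.77% of all genes tested and 5.66% of segments tested by CPM. The measures are unlike: shares of 1 class depend on each other, and families had no filter on low counts. No Trbv family of 20 was outside on either side.

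Between the genotypes, no segment passed the test. The edgeR quasi-likelihood test called 0 of 159 segments tested, and 0% of all 14424 genes tested, at a false discovery rate of 0.05. At an unadjusted p under 0.05 it gave 1 of 159 segments (0.629%), a lower one, against 2.5% of all genes (1.54% higher and 0.964% lower in CNS2KO). DESeq2 called 0 segments, with 2.53% at an unadjusted p under 0.05 against 3.45% of all genes, and limma-voom 0, with 1.89% against 4.26%. Without CNS2KO 408, that number was 16 of 167 segments (9.58%), against 10.6% of all genes tested.

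Both CNS2KO libraries lay outside the WT range in 9 segments (5.66%), against 6.77% of all genes tested. They were above it in 2 (3.76% of all genes), Traj57 and Trav9-2, and below it in 7 (3% of all genes): Traj31, Trav21-dv12, Trav9n-4, Trav8n-2, Trav2, Trav9d-4 and Trav15d-1-dv6d-1. The total is near that of all genes; the segments above WT were 1.26% and those below 4.4% of the segments tested. Without CNS2KO 408 the count was 67 segments (42.1%, against 39.9% of all genes), and without CNS2KO 399 it was 18 (11.3%, against 22.3%).

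The segments with the smallest p below WT were Trav9d-4, Trav2, Trav9n-4, Trav9d-3 and Traj9. Trav9d-4 had 18, 45, 45, 9 and 24 reads in the WT libraries and 1 and 3 reads in CNS2KO 399 and 408 (unadjusted p = 0.0228, adjusted p = 0.9999, edgeR). Trav9n-4, which shares 73.2% of its 50-base stretches with Trav9d-4, stood at 2.67, 7.53, 2.80, 3.34 and 4.15 CPM in WT and at 0.425 and 1.72 CPM in CNS2KO. Trav2, the only row of its family, had 24, 19, 84, 39 and 100 reads in WT and 0 and 13 in CNS2KO. In these 3 rows both CNS2KO libraries were below every WT library, and CNS2KO 399 was the lower of the pair. Fitted log2 fold changes were -3.96 (SE 1.51), -1.93 (SE 0.89) and -3.21 (SE 1.48) for Trav9d-4, Trav9n-4 and Trav2, and at so few reads they depend on the fit's prior count. Without CNS2KO 399 they were -3.39, -1.24 and -2.22, and without CNS2KO 408 -4.87, -3.25 and -8.77.

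Trav9d-3 stood at 0.0472 and 0.478 CPM in CNS2KO and at 0.243 to 5.18 CPM in WT, and Traj9 at 0.378 and 1.82 CPM against 1.78 to 6.04 CPM; in both the groups overlapped. Without CNS2KO 408 their log2 fold changes went from -2.72 to -5.06 and from -1.58 to -3.11, and without CNS2KO 399 to -1.87 and -0.85; Trav9d-3 was at -1.77 without WT 1032. In the other direction, the smallest p belonged to Trgv2, Trbj2-5, Traj57, Trav10n and Trbj2-2. Traj57 stood at 0.871, 0.728, 0.916, 1.19 and 0.701 CPM in WT and at 3.35 and 1.58 CPM in CNS2KO, above every WT library (log2 fold change 1.48, SE 0.96, adjusted p = 0.9999, edgeR; 0.84 without CNS2KO 399). Trav10n stood at 5.76 CPM in CNS2KO 399 and at 0 to 1.91 CPM in every other library.

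The median log2 fold change was -0.39 over 76 Trav rows (26 higher in CNS2KO, 50 lower), -0.34 over 41 Traj rows (14 higher, 27 lower), 0.07 over 22 Trbv rows (15 and 7) and 0.10 over 12 Trbj rows (10 and 2). Over all genes tested it was -0.03, with 47.4% higher. The rows of 1 locus share their libraries and are not independent. The Trav median lay between -0.45 and -0.30 when any 1 library was left out, and was -0.06 over the 9 Trav rows with at least 10 CPM in 2 libraries. The Trbv median was 0.03 without CNS2KO 399 and 0.19 without CNS2KO 408. The Trbj median turned to -0.05 without CNS2KO 399.

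The spread of segments between wild-type libraries was set beside that of other genes of their level. The median coefficient of variation over 5 WT libraries was 55.1% for Trav, 63.4% for Traj, 24.1% for Trbv and 19.7% for Trbj, beside 30.4% for all genes tested. At 0.5 to 1 CPM it was 70.9% for 16 segments and 99.3% for 1171 genes. At 2 to 5 CPM it was 53.9% for 50 segments and 55.2% for 1720 genes; at 5 to 10 CPM it was 39.4% for 18 segments (51.7% for the 13 Trav rows among them) and 41.0% for 1376 genes; at 50 to 100 CPM it was 21.6% for 9 segments and 18.7% for 1848 genes. Between 500 and 1000 CPM, where the 3 constant genes stand, it was 18.5%, against 11.8% for 172 genes.

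**Figure D4:**
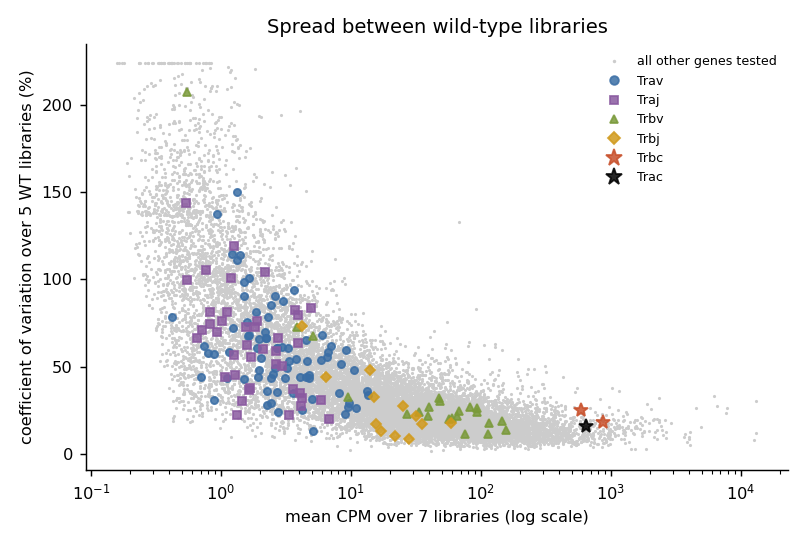
Coefficient of variation over the 5 WT libraries (percent) against mean CPM over 7 libraries (log scale) for every gene tested; coloured marks are receptor segments by class. The coloured marks lie within the cloud of other genes, with Trav and Traj at the left where counts are low and Trbv at the right.

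Alpha V segments were at 0 most often in the libraries that had reads on the fewest genes. Of the 85 Trav rows with any read, 2, 10, 4, 16 and 2 were at 0 in WT 398, 402, 405, 1032 and 1037, and 14 and 3 in CNS2KO 399 and 408. The 3 libraries with 10 or more such rows had reads on 14810, 14861 and 14639 genes, and the others on 15671 to 19206. Total reads on genes, in contrast, were highest in CNS2KO 399. Of 47 Traj rows with any read, 4, 5, 5, 6 and 2 were at 0 in the WT libraries and 9 and 2 in CNS2KO, so WT 402 and WT 405 did not differ in Traj. The part of library complexity in the Trav differences above was not tested.

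**Figure D5:**
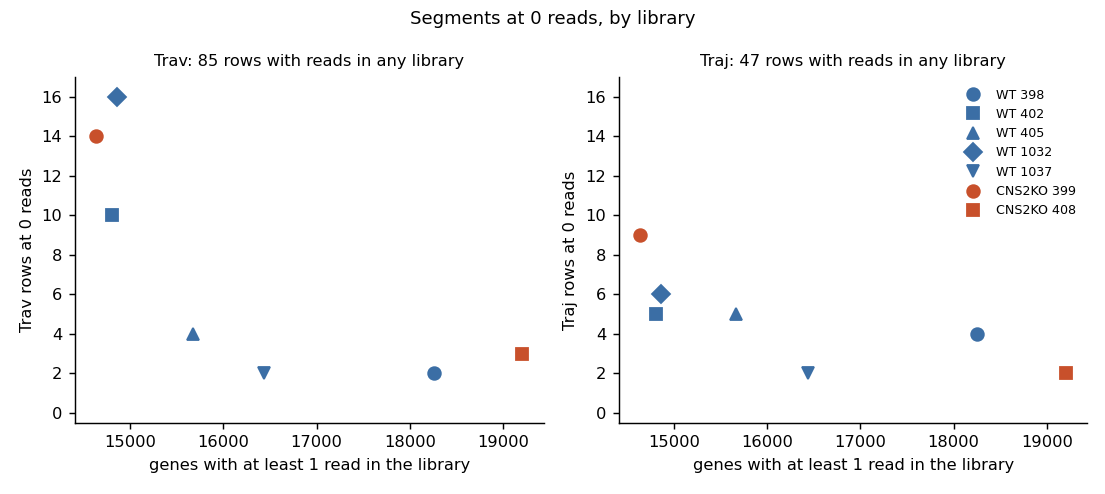
Number of Trav rows (left) and Traj rows (right) at 0 reads in a library against the number of genes with at least 1 read in it; each point is 1 library, WT in blue and CNS2KO in orange. The 3 libraries with the fewest genes detected have 10, 16 and 14 Trav rows at 0, and the others 2 to 4.

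The effective number of segments, the exponential of the Shannon entropy of usage, says how many equally used segments would give the same evenness. Counts were first thinned to the smallest library of each class. For Trav it was 57.5, 50.1, 54.5, 47.7 and 56.5 in WT and 43.7 and 56.4 in CNS2KO. CNS2KO 399 was the lowest of all libraries, and CNS2KO 408 lay between WT 405 and WT 1037. For Traj it was 28.9 ± 4.29 in WT (SD, n = 5) and 28.3 and 34.2 in CNS2KO. For Trbv it was 16.7 ± 0.235 in WT, and the CNS2KO values of 16.2 and 17.3 lay on either side of the WT range (16.5 to 17.1). For Trbj it was 9.84 ± 0.362 in WT and 9.55 and 10.2 in CNS2KO, inside the WT range.

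Usage profiles were compared between libraries by the share of reads that would have to change segment to turn one profile into the other. Over the 10 pairs of WT libraries the median was 7.11% for Trbv, 9.50% for Trbj, 27.4% for Trav and 32.9% for Traj. Over the 10 pairs of 1 WT and 1 CNS2KO library it was 7.92, 8.56, 26.5 and 32.1%, and between the CNS2KO libraries 8.88, 9.52, 22.8 and 29.9%. Pairs across genotypes were thus no further apart, in the median, than the range of pairs within WT. The closest pair in Trav and in Trbv was WT 398 with CNS2KO 408 (12.8 and 3.41%), below the lowest WT pair (16.3 and 5.95%).

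Gamma and delta segments had few reads, with no class summing to more than 6.003 CPM in any library. Trdv rows summed to 4.79, 4.73, 6.003, 0.432 and 4.32 CPM in WT and 1.46 and 3.63 CPM in CNS2KO, and Trgj rows to at most 1.40 CPM in any library. Trdv2-2 and Trdv1 were the highest delta rows, at 0.162 to 3.51 and 0 to 2.07 CPM over the 7 libraries. Trgv2 had 125 reads in CNS2KO 399 (5.90 CPM), 16 in CNS2KO 408, 16 and 25 in WT 398 and 1037, and 0 in the other WT libraries; its log2 fold change of 2.82 had an SE of 1.73 (adjusted p = 0.9999, edgeR). It was 0.71 without CNS2KO 399 and 3.90 without WT 1037. No row named Trgc or Trdc was among those analysed here. A row under an older symbol, Tcrg-C, stood at 4.63 to 22.3 CPM and was highest in WT 1032. Another, Tcrg-V3, stood at 0 to 3.03 CPM and was highest in WT 402 (50 reads). Tcrg-V4 and Tcrg-V6 had at most 5 reads in any library, and Tcrg-V5 and Tcrg-V7 had 0. Of the gamma delta T cell markers, Sox13, Cd163l1 and Il17a had 0 reads in all 7 libraries, Blk stood at 0 to 1.29 CPM, and 5830411N06Rik had 39 reads in WT 402, 9 in CNS2KO 408 and 0 elsewhere.

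The segments of invariant T cells were looked at as markers of other lineages. Natural killer T cells join Trav11 to Traj18, and mucosal-associated invariant T cells join Trav1 to Traj33. Trav11 had 0 reads, but 99.7% of its 50-base stretches are also in Trav11d, which stood at 0 to 1.07 CPM. Traj18 stood at 1.47, 0.425, 2.14, 0.324 and 0.877 CPM in WT and at 3.97 and 1.72 CPM in CNS2KO, and the groups overlapped. Trav1 stood at 2.18, 9.95, 0.661, 1.62 and 6.37 CPM in WT and at 2.46 and 2.29 CPM in CNS2KO, and Traj33 ranged from 0.485 to 4.43 CPM. Zbtb16, the transcription factor that marks both lineages, had at most 0.0956 CPM in any library, below the 3-read limit.
Traj18: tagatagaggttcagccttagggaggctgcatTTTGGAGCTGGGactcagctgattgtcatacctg
Traj33: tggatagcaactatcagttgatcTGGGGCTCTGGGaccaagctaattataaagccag
These joining segments are shown because they mark the invariant receptors; the motif codons in capitals begin with Phe in Traj18 and with Trp in Traj33.

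Among the other genes of the receptor, 0 of the 5 tested passed the threshold. The CD3 chains, which carry the signal of the receptor, stood at 664 ± 99.5, 689 ± 104 and 1007 ± 230 CPM in WT (SD, n = 5) for Cd3d, Cd3e and Cd3g, and at 731 ± 192, 634 ± 35.4 and 1079 ± 78.0 CPM in CNS2KO (SD, n = 2). Cd247, the zeta chain, stood at 478 ± 43.8 and 521 ± 10.3 CPM. Their log2 fold changes lay between -0.12 and 0.14. The thymic genes Rag1 and Rag2, the recombinase, and Ptcra, the surrogate alpha chain, had 0 reads in all 7 libraries, while Dntt, which adds bases at the joins, stood at 1.24 to 6.97 CPM.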

How the data were processed

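Total RNA of sorted mouse regulatory T cells was amplified with a SMARTer kit and prepared for Proton sequencing, per the labels' protocols. Raw counts of reads for each gene symbol are what the authors deposited; STAR, BWA, edgeR and the build mm9 appear in the submitters' processing notes, without roles, and the annotation and counter are not given in the sources used here. Summary rows of the counter (5) were left out: no_feature, ambiguous, too_low_aQual, not_aligned and alignment_not_unique. Genes held 22.0 to 23.7% of a column's reads, and 47.7 to 54.3% fell on no feature. In each table, 2 columns numbered 407 were not used. No 2 libraries agreed within sampling noise (chi-square of at least 30.8 per degree of freedom).

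Genotypes were compared with edgeR 4.0.16 under R 4.3.3 (filterByExpr, TMM, two-sided quasi-likelihood test, Benjamini-Hochberg adjustment over all genes tested). A check on simulated counts planted changes only at levels above those of most Trav and Traj rows (medians 2.61 and 1.68 CPM), so it does not cover those rows. Usage, intervals and thinning (100 draws) used Python 3.11.15 and scipy 1.17.1. Sequences, names and gene order came from GENCODE M21 (GRCm38); as the files use mm9, no coordinates are given, only that Tra and Trd lie on chromosome 14, Trb on 6 and Trg on 13. The promoter table held no segment, and no protein sequences were used. Alternatives were RLE and upper-quartile scaling, DESeq2 1.42.0, limma-voom (limma 3.58.1), other filters, WT libraries with 3-digit numbers only, and each library left out. Named segments are all constant genes, the 5 highest per alpha and beta V or J class (8 for gamma and delta), the 5 smallest p per direction, the 3 largest coefficients of variation in Trav and Trbv, and invariant segments; others were chosen after their values were seen. Members and lists were chosen with earlier results of these data known. A marker of the B cell list is not reported here.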

Additional observations from a re-analysis of the deposited data

Results flagged for a closer look

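Of 68 values checked over the 5 WT libraries, 7 had 1 library apart from the rest by Dixon's criterion. Some values, such as Trbv2, were named for a large spread in these same libraries, and some are sums that overlap. The count is therefore a description and is not set against a chance rate. Trav14-2 stood at 15.0 CPM in WT 1037, next to 9.36 CPM. Trbv2 stood at 56.8 CPM in WT 402, next to 36.5 CPM. Traj31 stood at 10.3 CPM in WT 405, next to 7.42 CPM. Trav9d-3 stood at 5.18 CPM in WT 1032, next to 1.36 CPM. The delta rows together summed to 0.432 CPM in WT 1032, next to 4.44 CPM, and that library also had the most Trav rows at 0. Trgj4 stood at 0.993 CPM in WT 1037, next to 0.163 CPM. Trdv5 had 0.163 CPM in WT 398, from 3 reads, and 0 in the other WT libraries.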

How the results depend on the processing

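No segment was called under any alternative run. The count of segments with both CNS2KO libraries (or the 1 left) outside the WT range ranged from 11 (6.92% of segments, against 10.7% of all genes) to 67 (42.1 against 39.9%) with 1 library left out and was 21 (13.2 against 15.9%) with WT libraries of 3-digit numbers only. Of 174 alternative log2 fold changes of 13 segments, 168 kept their direction. Trbc2 turned without WT 398, WT 405, WT 1032 or CNS2KO 399, and Trbc1 and Trbj2-5 without CNS2KO 399; with 1 library left out, log2 fold changes ranged from -0.17 to 0.19 for Trbc2, from -0.075 to 0.44 for Trbc1 and from -0.10 to 0.85 for Trbj2-5. Other denominators change a value by construction. As shares of all Trb reads, Trbc2 was 28.3% in WT and 27.0% in CNS2KO, and Trbj2 6.199 and 6.45%. The Trav7 family held 13.9 and 11.9% of Trav reads; over segments with at least 10 reads in every library, Trav7-4 held 5.92% in WT and 5.68% in CNS2KO, against 4.74 and 4.79% over all segments. By inverse Simpson, effective numbers in WT and CNS2KO were 41.5 and 40.0 for Trav, 14.8 and 14.8 for Trbv, 23.0 and 26.4 for Traj, and 8.48 and 8.59 for Trbj; by family they were 13.2 and 12.3 for Trav and 12.3 and 12.4 for Trbv. The median coefficient of variation of Trav was 34.9% at a mean of 10 CPM or more, and SDs of log2 CPM were 0.72 for Trav and 0.34 for Trbv. No paired analysis was possible because the genotypes share 1 sample number, 407, whose column could not be assigned. With 2 CNS2KO libraries a single segment cannot go below an exact p of 0.048, and most Trav and Traj rows rest on few reads.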

Other observations

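The position of alpha V segments along the locus, in the GENCODE order, was looked at after the data were seen, so the values are a description with no test. The 35 Trav rows at the 5′ end, farthest from the J segments, took 30.04, 39.8, 38.7, 32.0 and 33.6% of Trav reads in WT 398, 402, 405, 1032 and 1037 and 27.7 and 28.2% in CNS2KO. Both CNS2KO libraries were below every WT library. The third nearest the J segments took 50.4, 45.2, 52.7, 52.9 and 52.1% in WT and 59.8 and 55.2% in CNS2KO, both above every WT library. The rows between them did not separate the groups (8.57 to 19.6% in WT, 12.5 and 16.6% in CNS2KO). Rows with d in the symbol took 31.6 to 36.8% in WT and 29.5 and 30.04% in CNS2KO, and rows with neither letter 55.8 to 61.0% and 64.0 and 61.4%. Rows with n overlapped (5.90 to 10.4%, and 6.46 and 8.55%). The shares by position are parts of the same total, as are the shares by letter, so a lower share of some rows raises the others. In the GENCODE order the d rows lie at positions 7 to 40, so most of them are among the 35 rows at the 5′ end. The separations by position and by letter are therefore not independent results. How often such shares separate the groups by chance was not tested. Positions come from another build than the counts, and the copies share sequence.

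The alpha J rows, put in locus order and split by number of rows, did not separate the groups. The 29 of 59 rows nearest the V segments took 23.2 to 39.6% of Traj reads in WT and 35.3 and 37.0% in CNS2KO. As a share of the reads of their class, both CNS2KO libraries lay outside the WT range in 2 of 47 Traj rows (4.26%; Traj18 and Traj57, both above). The same held for 8 of 85 Trav rows (9.41%, 4 above and 4 below), 1 of 14 Trbj rows (7.14%, Trbj2-2, above) and 0 of 23 Trbv rows. By CPM it was 6.77% of all genes tested and 5.66% of segments tested, a measure unlike shares, which depend on each other.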
